A study of Homo sapiens with 9 samples.

Results

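Integrin subunits and the proteins of focal adhesions formed the set of genes described here. They were 39 genes chosen by symbol. A gene was represented by the brightest of its probe sets that the platform annotation assigns to that symbol alone. Such a probe set was found for 38 of the 39 genes among 54675 probe sets on the array, and FLNA was not analysed here. The 38 genes had 116 such probe sets. ITGA6, whose signals lay between 0.92 and 5.79 on all 9 arrays, stayed below the filter on dim probe sets (a signal of about 11.3), which left 37 genes among the 20068 features tested. The RNA came from U87 cells, an established human glioma line, of which 100000 received 50 nM of a miRNA duplex by lipid transfection and were harvested after 24 h. The groups were U87 cells given miR-376a*A, U87 cells given miR-376a*G and U87 cells given a control miRNA, each with 3 biological replicates and 1 array per replicate. The A form is known as the unedited miRNA, and the G form as the product of adenosine-to-inosine editing, in which inosine is read as G. Added duplexes can reach levels in the cell far from those of the natural miRNA, and all groups, the control included, went through the same transfection.

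Integrins are cell surface receptors made of an alpha and a beta subunit that bind proteins of the extracellular matrix such as fibronectin, collagen, laminin and vitronectin. Talin and kindlin bind the inner tail of the beta subunit and switch the receptor on, and vinculin, alpha-actinin and tensin tie it to actin filaments. The cluster of receptors and adaptors that forms there, the focal adhesion, also holds kinases such as focal adhesion kinase and SRC that signal to cell movement and survival. Glioma cells use integrins to attach to and move through brain matrix.

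The star in the name marks the arm now called 5p. The RefSeq table (GRCh38.p14) holds a 5p sequence for each of the MIR376A1 and MIR376A2 genes (chr14:101040788-101040809 and chr14:101040080-101040100, plus strand), shown here because the groups differ only in the duplex added. Capitals mark the seed, bases 2 to 8, which in a miRNA pairs with target transcripts.
hsa-miR-376a-5p: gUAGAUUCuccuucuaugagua
hsa-miR-376a-2-5p: gGUAGAUUuuccuucuauggu
The seeds of both are not the same, UAGAUUC against GUAGAUU. The sequences of the transfected duplexes and the position of the base that sets the G form apart from the A form are not stated in the labels or files used.

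Deposited signals had the same 2% trimmed mean on every array (100.009 to 100.011), so these values cannot show a rise or fall common to all transcripts. Arrays of a group correlated across features with r between 0.9865 and 0.9952, and the control arrays were the most uneven, with SDs of their deviations from the group mean of 0.164, 0.145 and 0.113 (log2) against 0.102 to 0.114 on the other 6. Of 9 mesenchymal and glioma line markers on the array all 9 were above the filter, with VIM, CD44, FN1 and LGALS1 between 1756 and 2826. Their summed signal ranged from 17220.1 to 19386.5 with miR-376a*A, 15807 to 17057 with miR-376a*G and 15873 to 17815.8 with the control miRNA. The defining astroglial markers GFAP and S100B were at most 2.43 and 1.67 on any array, although 7 of 12 glial and neural progenitor markers passed the filter. Of 10 epithelial, 7 blood and myeloid and 7 endothelial markers on the array 4, 3 and 3 passed the filter. Summed endothelial markers ranged from 163 to 202 with miR-376a*A, 154 to 175 with miR-376a*G and 111 to 114 with the control miRNA, while CDH5 and VWF were at most 7.73. Of the 3 endothelial markers above the filter 2 rose with miR-376a*A and 2 with miR-376a*G (adjusted p under 0.05 by limma). Over all features 10.8% and 11.8% rose. The part of these markers in the results was not tested.

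The series compares each form with the control miRNA, and the forms can be compared with each other. With miR-376a*G, 16 of 37 tested genes fell and 3 rose against the control miRNA at an adjusted p under 0.05 (limma, Benjamini-Hochberg over all 20068 features). Of these features 13697 carried a single symbol, and the others were probe sets with none or several. Over all features 13.1% fell and 11.8% rose with miR-376a*G. With miR-376a*A 4 fell and 9 rose against the control miRNA, beside 10.0% and 10.8% of all features. Between the forms 21 genes were higher and 0 lower with miR-376a*A than with miR-376a*G, beside 10.4% and 7.90% of all features. By unadjusted p under 0.05 in the same limma fit, 23 were higher and 1, TLN1, was lower. The median differences of the 37 genes were 0.079 with miR-376a*A and -0.19 with miR-376a*G relative to control, and 0.33 between the forms. The same medians over all features were 0.041, -0.0038 and 0.034. The genes were chosen with earlier results of these data known, so these counts and medians describe the set and do not test it. Of the 37 genes 4 (ITGA5, ITGB3, TLN2 and VCL) fell with both forms, beside 4.91% of all features, and 11 passed in none of the 3 comparisons, beside 61.8%. In either direction 24.9% of all features passed with miR-376a*G, 20.8% with miR-376a*A and 18.3% between the forms. Changes of at least 2-fold that passed were 3 falls and 1 rise with miR-376a*G (0.718% and 0.498% of all features), 0 falls and 1 rise with miR-376a*A (0.563% and 0.354%), and between the forms 1 gene higher and 0 lower with miR-376a*A (0.508% and 0.488%). Where 0 genes reached 2-fold, the same limma fit gave 4 falls with miR-376a*A and 1 gene lower between the forms at unadjusted p under 0.05, whatever their size. These differences are on the log2(signal + 16) scale, where dim genes change less than their signal does. Both comparisons with the control share the 3 control arrays, so their values are given side by side below. A lower signal in such bulk RNA can come from fewer cells with the transcript or from less of it per cell, which cannot be told apart.

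**Figure D1:**
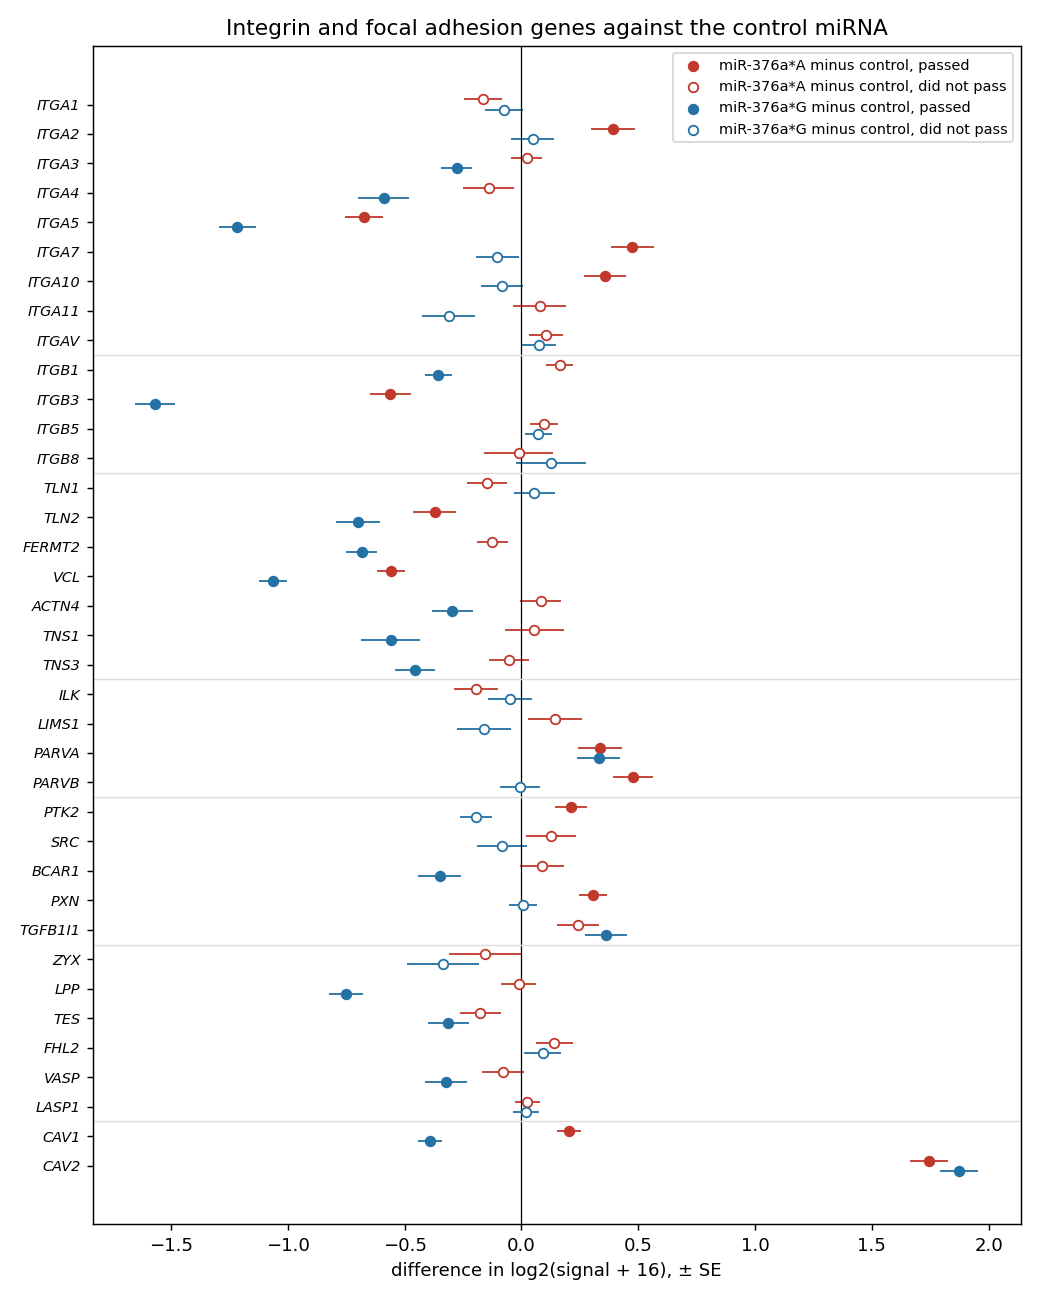
Difference of each of the 37 tested genes from the control miRNA in log2(signal + 16), with miR-376a*A above and miR-376a*G below on each line, as the estimate ± SE of the shared fit on 9 arrays. Filled points passed at an adjusted p under 0.05. Pale lines part the roles. The largest falls are those of ITGB3 (-1.57), ITGA5 (-1.22) and VCL (-1.06) with miR-376a*G, and CAV2 stands apart on the right with both forms.

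The falls with miR-376a*G numbered 13 when replicate 3 of miR-376a*G was left out and 18 when replicate 1 of the control was. Between the forms 18 to 22 genes were higher with miR-376a*A and 0 lower when any 1 array was left out, with 1 gene lower by unadjusted p in the full fit as above. The rises with miR-376a*A numbered 6 without miR-376a*A replicate 1 or 2. After subtracting its median from every array, the calls of all features between the forms were 7.52% higher and 11.0% lower with miR-376a*A, while 18 of the 37 genes were then higher and 0 lower. This subtraction moved the median of all features between the forms by -0.059 and the median of the 37 genes to 0.27. With the filter at the 60th percentile, 33 of the genes and 13483 features were tested. Then 16 genes fell and 3 rose with miR-376a*G, beside 2529 and 2330 features. With miR-376a*A 4 genes fell and 10 rose, beside 2059 and 2096 features. Between the forms 19 genes were higher and 0 lower with miR-376a*A, beside 1911 and 1617 features. Arrays of both groups did not overlap for 18 of the 37 genes with miR-376a*A and 22 with miR-376a*G against the control miRNA, and for 26 between the forms, beside 36.7%, 38.3% and 42.2% of all features.

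Among the beta subunits ITGB3, the beta chain of a receptor for vitronectin and fibronectin, fell furthest. Its signals were 258, 249.7 and 249 with miR-376a*A, 116, 121 and 116 with miR-376a*G and 438, 341 and 367 with the control miRNA. No array of any group reached into another group, and the miR-376a*G arrays lay lowest. ITGB3 fell 2.96-fold with miR-376a*G (-1.57 ± 0.086, SE, adjusted p = 9.2e-08 by limma) and 1.47-fold with miR-376a*A (-0.56 ± 0.086, adjusted p = 0.000593). The difference between the forms, 1.01 ± 0.086, was the largest of the 37 genes and the only one that reached 2-fold by the brightest probe set. With the mean of its 7 tested probe sets ITGB3 was smaller in every comparison, at -0.67 with miR-376a*G, -0.19 with miR-376a*A, which did not pass (adjusted p = 0.088), and 0.48 between the forms, where ITGB1 by the same rule stood at 0.78.

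ITGB1, the beta chain shared by most collagen, laminin and fibronectin receptors, passed as lower with miR-376a*G. It had signals of 2266, 2193 and 1996 with miR-376a*A, 1522, 1480.2 and 1479.7 with miR-376a*G and 1942, 1917 and 1889.9 with the control miRNA. The miR-376a*A arrays were all above, and the miR-376a*G arrays all below, the control arrays. ITGB1 fell 1.28-fold with miR-376a*G (adjusted p = 0.000701 by limma), and with miR-376a*A it stood at 0.16 ± 0.058 (adjusted p = 0.0642), which did not pass. It passed as higher with miR-376a*A without miR-376a*A replicate 3 (adjusted p = 0.0359) or control miRNA replicate 1 (adjusted p = 0.0407). Between the forms it was 1.43-fold higher with miR-376a*A (adjusted p = 4.41e-05). A pair of other bright ITGB1 probe sets gave larger falls with miR-376a*G, -0.81 and -0.93, so the size of the fall depends on the probe set while its direction does not.

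ITGB5 and ITGB8, which like ITGB3 pair with ITGAV, did not pass in any comparison. ITGB5 averaged 653 ± 9.77 with miR-376a*A, 642 ± 27.0 with miR-376a*G and 609.6 ± 13.4 with the control miRNA (SD, n = 3 each), with a 95% interval of -0.10 to 0.15 between the forms. ITGB8 was dim, with a mean of 15.6 ± 3.01 with miR-376a*A, 18.8 ± 2.95 with miR-376a*G and 16.3 ± 6.62 with the control miRNA, and its interval between the forms, -0.46 to 0.19, was wide.

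Alpha subunits split by comparison. By brightest probe sets, of 9 tested 3 fell and 0 rose with miR-376a*G, and 1 fell and 3 rose with miR-376a*A. Between the forms 7 were higher and 0 lower with miR-376a*A. Over all features 13.1% fell and 11.8% rose with miR-376a*G, and 10.0% fell and 10.8% rose with miR-376a*A. Of all features 10.4% were higher and 7.90% lower between the forms. The 1 fall with miR-376a*A, 11.1% of the alpha subunits tested, was near the share of all features. By unadjusted p, also from limma, 0 alpha subunits rose with miR-376a*G and 0 were lower with miR-376a*A than with miR-376a*G. With the mean of its probe sets, however, ITGA2 passed as higher with miR-376a*G (0.59). ITGA5, the alpha chain of the main fibronectin receptor, had signals of 427, 434 and 478 with miR-376a*A, 323, 279 and 304 with miR-376a*G and 683, 789.7 and 694 with the control miRNA. The 3 groups did not overlap, in the order miR-376a*G, miR-376a*A and control from low to high. It fell 2.32-fold with miR-376a*G (adjusted p = 4.28e-07) and 1.6-fold with miR-376a*A (adjusted p = 7.83e-05), and differed by 0.54 ± 0.080 between the forms (adjusted p = 0.000441, all by limma). ITGA4, which binds fibronectin and a vascular adhesion molecule, was dim, at 32.7, 32.2 and 30.9 with miR-376a*A, 19.1, 18.3 and 20.0 with miR-376a*G and 45.9, 30.4 and 35.3 with the control miRNA. Its miR-376a*G arrays lay below all others, with a fall of 1.5-fold (adjusted p = 0.00164), while the miR-376a*A arrays overlapped the control. The 3 other tested ITGA4 probe sets gave -0.18 to -0.067 and did not pass, and with the mean of all 4 the ITGA4 fall did not pass (-0.23, adjusted p = 0.118). ITGA3, a laminin receptor chain, fell 1.21-fold with miR-376a*G, to 411 ± 5.35 against 503 ± 33.1 with the control miRNA (SD, n = 3 each, adjusted p = 0.00777 by limma).

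Other alpha subunits were higher with miR-376a*A. ITGA7, a laminin receptor chain known from muscle, had signals of 247, 235 and 239.6 with miR-376a*A, 167, 144 and 157 with miR-376a*G and 195, 165 and 148 with the control miRNA. The miR-376a*A arrays lay above the other 6, and those 6 overlapped. ITGA7 rose 1.39-fold with miR-376a*A (adjusted p = 0.0033 by limma), and its other tested probe set gave 0.16 and did not pass. ITGA10, a collagen receptor chain of cartilage, had signals of 73.4, 72.5 and 72.8 with miR-376a*A, 48.5, 48.3 and 51.7 with miR-376a*G and 47.3, 61.6 and 51.9 with the control miRNA. It too was highest on the miR-376a*A arrays, and rose 1.28-fold (adjusted p = 0.0132 by limma).

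ITGA2, another collagen receptor chain, rose 1.31-fold with miR-376a*A, to a mean of 653 ± 82.9 against 491 ± 32.9 with the control miRNA (SD, n = 3 each, adjusted p = 0.0098 by limma). A second ITGA2 probe set of nearly the same brightness, chosen after its values were seen, averaged 752 ± 37.0 with miR-376a*A, 461 ± 114 with miR-376a*G and 199 ± 15.1 with the control miRNA. It gave 1.84 with miR-376a*A and 1.13 with miR-376a*G and passed in both, so the probe sets of ITGA2 did not give the same size of change. With the mean of both, ITGA2 rose with miR-376a*G as well (0.59, adjusted p = 0.000907). ITGA11 stood at -0.31 ± 0.114 with miR-376a*G (adjusted p = 0.0644), and passed without control miRNA replicate 1 (adjusted p = 0.0256). ITGA1 and ITGAV stood between -0.17 and 0.10 in the comparisons with the control and did not pass. ITGAV passed as higher with either form without control miRNA replicate 1, with adjusted p of 0.0176 with miR-376a*A and 0.0335 with miR-376a*G.

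**Figure D2:**
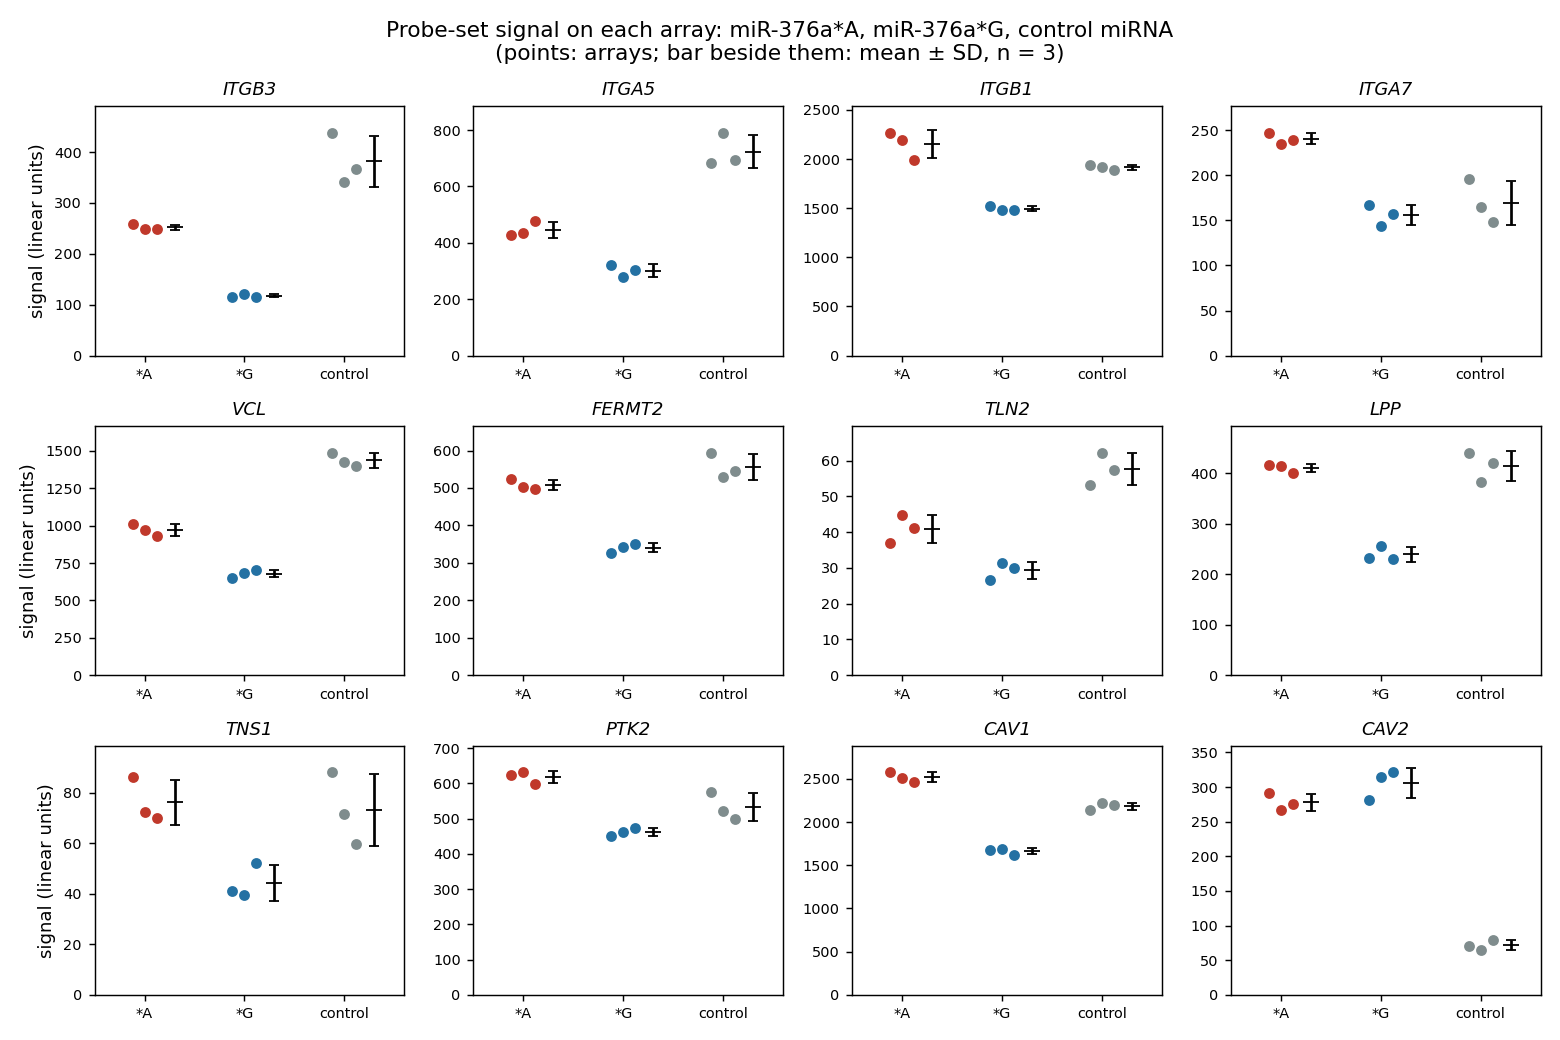
Signal in linear units on each array for 12 genes, with miR-376a*A, miR-376a*G and the control miRNA from left to right. Points are arrays and the bar beside them is the mean ± SD of 3. ITGB3, ITGA5, VCL and TLN2 fall into 3 separate levels with miR-376a*G lowest, and CAV2 is high with both forms and low in the control. CAV1 and ITGB1 are highest with miR-376a*A and lowest with miR-376a*G.

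Genes for the proteins that switch integrins on and link them to actin were mostly lower with miR-376a*G by their brightest probe sets. Of 7 tested, 6 fell with miR-376a*G and 2 with miR-376a*A, beside 13.1% and 10.0% of all features. Between the forms 6 were higher with miR-376a*A than with miR-376a*G, beside 10.4%. VCL, which encodes vinculin, had signals of 1011, 969.7 and 933 with miR-376a*A, 652, 682 and 703 with miR-376a*G and 1489, 1423 and 1397 with the control miRNA. Each group was separate from the others, and VCL fell 2.09-fold with miR-376a*G (-1.06 ± 0.060, adjusted p = 1.07e-07) and 1.47-fold with miR-376a*A (-0.56 ± 0.060, adjusted p = 3.3e-05, limma). With a second, dim VCL probe set averaged in, the fall with miR-376a*A was -0.28. FERMT2, which encodes a kindlin, had signals of 524, 502 and 499 with miR-376a*A, 327, 343 and 350.5 with miR-376a*G and 594, 528 and 545 with the control miRNA. It fell 1.6-fold with miR-376a*G (adjusted p = 1.21e-05 by limma), whereas with miR-376a*A all 3 arrays were below the control arrays by an amount that did not pass (-0.12 ± 0.066). Another FERMT2 probe set passed as higher with miR-376a*A (0.35), so that its direction with that form is not settled.

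Talin is encoded by TLN1 and TLN2. TLN2 was dim, with signals of 37.0, 44.9 and 41.1 with miR-376a*A, 26.8, 31.4 and 29.9 with miR-376a*G and 53.3, 62.3 and 57.4 with the control miRNA. These fell into 3 separate levels, lowest with miR-376a*G. It fell 1.62-fold with miR-376a*G (adjusted p = 0.000143) and 1.29-fold with miR-376a*A (adjusted p = 0.013, limma). A second TLN2 probe set gave 0.29 and 0.30 and did not pass, so the direction of TLN2 rests on 1 probe set, and with the mean of both TLN2 did not pass with either form (adjusted p = 0.24 with miR-376a*G and 0.878 with miR-376a*A). The call with miR-376a*A was lost without miR-376a*A replicate 1 (adjusted p = 0.0591). TLN1 had signals of 46.7, 45.4 and 48.7 with miR-376a*A, 56.5, 58.4 and 54.3 with miR-376a*G and 47.6, 59.4 and 54.3 with the control miRNA, and both forms overlapped the control but not each other. It stood at -0.15 ± 0.087 with miR-376a*A and 0.056 ± 0.087 with miR-376a*G. Neither passed, its 3 tested probe sets did not share a sign, and the dimmest passed as higher with miR-376a*A (0.71).

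Among tensin genes TNS1 and TNS3 passed as lower with miR-376a*G by their brightest probe sets, while TNS2 and TNS4, named after their values were seen, stood at -0.15 and 0.26 and did not pass. Between the forms TNS2 passed as higher with miR-376a*A (0.44, adjusted p = 0.0226 by limma), and TNS4 did not pass (-0.23). TNS1 had signals of 86.2, 72.4 and 69.8 with miR-376a*A, 41.1, 39.3 and 52.3 with miR-376a*G and 88.1, 71.5 and 59.8 with the control miRNA, so that the miR-376a*G arrays lay below all 6 others, which overlapped. Its fall was 1.47-fold (adjusted p = 0.00596), and a pair of dimmer probe sets gave 0.059 and -0.012 without passing, nor did the mean of the 3 pass (adjusted p = 0.184). TNS3 had signals of 509.7, 445 and 449 with miR-376a*A, 308, 364 and 383 with miR-376a*G and 482, 497 and 477 with the control miRNA, with the miR-376a*G arrays again lowest, and fell 1.37-fold (adjusted p = 0.00187, both by limma). ACTN4, which encodes an alpha-actinin that bundles actin filaments, stood at 848 ± 80.8 with miR-376a*G and 1045 ± 106 with the control miRNA (SD, n = 3 each). Its arrays overlapped, and the ACTN4 fall of 1.23-fold (adjusted p = 0.0264 by limma) was lost on leaving out replicate 2 or 3 of miR-376a*G or replicate 2 or 3 of the control, with adjusted p between 0.0588 and 0.108.

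The complex of ILK, LIMS1 and the parvins, which binds beta tails and actin, had no member that passed as lower by its brightest probe set. By limma's unadjusted p there were also 0 in each comparison. Over all features 10.0% fell with miR-376a*A, 13.1% fell with miR-376a*G and 7.90% were lower between the forms. ILK, the central pseudokinase of the complex, had signals of 654, 592 and 594 with miR-376a*A, 672, 686 and 681 with miR-376a*G and 604, 828 and 696 with the control miRNA. The control arrays spanned a wider range than both other groups, and ILK did not pass with miR-376a*A (-0.19 ± 0.095) or miR-376a*G (-0.049 ± 0.095). Without control miRNA replicate 1 it passed as lower with miR-376a*A (-0.30, adjusted p = 0.0103). PARVB had signals of 194, 219.8 and 237 with miR-376a*A, 155, 142 and 154 with miR-376a*G and 139.8, 154 and 159 with the control miRNA, highest on the miR-376a*A arrays, and rose 1.39-fold with miR-376a*A (adjusted p = 0.00173 by limma). Of 4 other tested PARVB probe sets 3 had the opposite sign, without passing, and the mean of all 5 gave -0.014. With miR-376a*G all 4 were negative, and 1 passed as lower (-0.44). PARVA rose 1.26-fold with miR-376a*A and 1.26-fold with miR-376a*G (adjusted p = 0.0226 and 0.0205, limma). Its call with miR-376a*A was lost on leaving out replicate 1 or 2 of miR-376a*A or replicate 3 of the control (adjusted p between 0.0618 and 0.101). The PARVA call with miR-376a*G was lost on leaving out replicate 2 or 3 of miR-376a*G or replicate 3 of the control (adjusted p between 0.0518 and 0.0921). LIMS1, which encodes the LIM protein of the complex, was near the filter, with signals from 9.67 to 20.0, and did not pass.

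Of 5 genes for kinases and scaffolds that signal from adhesions, 3 were higher with miR-376a*A than with miR-376a*G, beside 10.4% of all features. These were PTK2, BCAR1 and PXN by their brightest probe sets, and 0 were lower, beside 7.90%. With the mean of probe sets PTK2 and PXN did not pass between the forms (adjusted p = 0.107 and 0.291 by limma). PTK2, which encodes focal adhesion kinase, had signals of 625, 632 and 599 with miR-376a*A, 451, 463 and 474 with miR-376a*G and 576, 522 and 499.6 with the control miRNA. The miR-376a*A arrays were above and the miR-376a*G arrays below the control arrays. Between the forms PTK2 was 1.33-fold higher with miR-376a*A (adjusted p = 0.000993 by limma), which did not pass with the mean of its 4 tested probe sets (adjusted p = 0.107). Against the control it stood at 0.21 ± 0.067 with miR-376a*A (adjusted p = 0.0401), just past the threshold, and at -0.19 ± 0.067 with miR-376a*G (adjusted p = 0.0513), just short of it. The PTK2 rise with miR-376a*A was lost without any array except control miRNA replicate 1, with adjusted p between 0.0549 and 0.138, and PTK2 passed as lower with miR-376a*G without control miRNA replicate 3 (adjusted p = 0.0367). Another PTK2 probe set passed as higher with miR-376a*G (0.26), and the mean of the 4 gave 0.014 (adjusted p = 0.914), so that PTK2 has no settled direction with that form.

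BCAR1, a scaffold phosphorylated by focal adhesion kinase and SRC, had signals of 97.5, 121 and 103 with miR-376a*A, 72.1, 82.5 and 69.4 with miR-376a*G and 96.9, 107 and 94.8 with the control miRNA, lowest on the miR-376a*G arrays. It fell 1.27-fold with miR-376a*G (adjusted p = 0.0158 by limma), a call lost without miR-376a*G replicate 1 or 3 (adjusted p = 0.0538 and 0.0688). PXN, which encodes the scaffold paxillin, rose 1.24-fold with miR-376a*A, to 631 ± 25.3 against 507 ± 11.6 with the control miRNA (SD, n = 3 each, adjusted p = 0.00313 by limma). A dim PXN probe set gave -0.35 without passing, and the mean of both gave -0.025. TGFB1I1, a relative of paxillin, rose 1.29-fold with miR-376a*G (adjusted p = 0.0104) and stood at 0.24 ± 0.090 with miR-376a*A (adjusted p = 0.0771). With miR-376a*A it passed without control miRNA replicate 3 (adjusted p = 0.024). SRC did not pass in any comparison by its brightest probe set, with a 95% interval of -0.024 to 0.44 between the forms. Its other tested probe set passed as higher with miR-376a*A than with miR-376a*G (0.52), as did the mean of both (0.36, adjusted p = 0.0281).

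Among proteins of the zyxin type and those that build actin filaments, 3 of 6 fell and 0 rose with miR-376a*G by brightest probe sets. With miR-376a*A 0 of the 6 passed in either direction. By limma's unadjusted p there were also 0 rises with miR-376a*G and 0 changes with miR-376a*A. Over all features 13.1% fell and 11.8% rose with miR-376a*G, and 20.8% passed in either direction with miR-376a*A. LPP, a zyxin relative, had signals of 416, 415 and 400.3 with miR-376a*A, 232, 257 and 229.9 with miR-376a*G and 441, 382 and 421 with the control miRNA. The miR-376a*G arrays lay far below the other 6, and those overlapped. LPP fell 1.68-fold with miR-376a*G (-0.75 ± 0.073, adjusted p = 1.23e-05), stood at -0.012 ± 0.073 with miR-376a*A, and differed by 0.74 ± 0.073 between the forms (adjusted p = 1.59e-05, limma). Of 7 other tested LPP probe sets 3 also passed as lower with miR-376a*G, the lowest at -1.18, and 0 passed as higher. The mean of all 8 gave -0.42. With miR-376a*A the 7 other probe sets ranged from -0.32 to 0.36, and 1 passed as higher, so that LPP has no settled direction with that form.

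VASP, which speeds the growth of actin filaments, fell 1.25-fold with miR-376a*G (adjusted p = 0.0194), a call lost on leaving out replicate 1 or 2 of miR-376a*G or replicate 3 of the control, with adjusted p between 0.0541 and 0.0852. TES, which encodes testin, fell 1.24-fold (adjusted p = 0.0205), but another TES probe set passed in the opposite direction (0.33), so that TES has no settled direction. The TES call was also lost without miR-376a*G replicate 3 (adjusted p = 0.0958). FHL2, LASP1 and ZYX did not pass by their brightest probe sets. LASP1 had the smallest SE of the 37 after CAV1 and 95% intervals of -0.092 to 0.14 with miR-376a*A and -0.10 to 0.14 with miR-376a*G. ZYX varied between 79.3 and 142 on the control arrays and passed as lower with miR-376a*G without control miRNA replicate 1 (adjusted p = 0.0197). A second ZYX probe set of nearly the same brightness passed as lower with both forms (-0.43 with miR-376a*A and -0.48 with miR-376a*G), and the mean of both passed with miR-376a*G (-0.41, adjusted p = 0.0267). FHL2 passed as higher with both forms without control miRNA replicate 2 (adjusted p = 0.00951 with miR-376a*A and 0.0244 with miR-376a*G).

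Caveolins, the coat proteins of membrane pits that lie near adhesions, did not move together. CAV2 had signals of 291, 268 and 275 with miR-376a*A, 282, 314 and 321 with miR-376a*G and 71.0, 65.4 and 79.1 with the control miRNA. All 6 arrays of both forms were above the highest control array, and they overlapped each other. CAV2 rose 3.35-fold with miR-376a*A (adjusted p = 2.71e-08) and 3.67-fold with miR-376a*G (adjusted p = 1.73e-08, limma), the largest change of the 37 genes with either form. A second bright CAV2 probe set gave 2.05 and 2.37. CAV1, its neighbour among the protein-coding genes of chromosome 7 in RefSeq, had signals of 2577, 2513 and 2466 with miR-376a*A, 1678, 1687 and 1622 with miR-376a*G and 2138, 2216 and 2201 with the control miRNA. Here the groups fell into 3 separate levels with the control in the middle. CAV1 fell 1.31-fold with miR-376a*G (adjusted p = 0.000116) and rose 1.15-fold with miR-376a*A (adjusted p = 0.0124, limma). The rise was lost without miR-376a*A replicate 1 or 2 (adjusted p = 0.0519 and 0.0541) and after quantile normalization (adjusted p = 0.138). A second bright CAV1 probe set had the same signs, -0.165 with miR-376a*G and 0.21 with miR-376a*A, and passed with neither. It did pass as higher with miR-376a*A than with miR-376a*G (0.37). Between the forms CAV1 was 1.51-fold higher with miR-376a*A (adjusted p = 3.79e-06), whereas CAV2 stood at -0.13 ± 0.082 and did not pass by its brightest probe set. The second bright CAV2 probe set passed as lower with miR-376a*A than with miR-376a*G (-0.31, adjusted p = 0.0113 by limma). TES lies on the other side of CAV2 among the protein-coding genes of that chromosome.

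The direct comparison of the forms ordered the 37 genes from ITGB3 (1.01), LPP (0.74), TNS1 (0.62), CAV1 (0.59) and ITGA7 (0.58) down to ILK (-0.15) and TLN1 (-0.20), which did not pass. The other tested probe set of ITGA7 gave 0.015 and those of TNS1 gave 0.097 and 0.13, without passing. Both calls held with the mean of probe sets. Among the 37 genes, ITGB1 and 7 of its 9 alpha partners were higher with miR-376a*A, namely ITGA2, ITGA3, ITGA4, ITGA5, ITGA7, ITGA10 and ITGA11. The exceptions were ITGA1 and ITGAV, with 95% intervals of -0.27 to 0.084 and -0.13 to 0.19. With the mean of its probe sets ITGA4 did not pass (0.0795, adjusted p = 0.641 by limma). ITGA9, a further partner of ITGB1 from another list, was named after its values were seen. It stood at 0.049 (adjusted p = 0.818 by limma) and did not pass, but its signals lay near the filter, between 10.5 and 19.1. The calls of ITGA11, ITGA2, TLN2 and ACTN4 were lost without single arrays. That of ITGA11 was lost without any 1 of the 6 miR-376a* arrays (adjusted p between 0.0515 and 0.115). The ITGA2 call was lost without replicate 1 of miR-376a*A or replicates 1 or 2 of miR-376a*G taken singly (adjusted p between 0.0586 and 0.0968). The TLN2 call was lost without miR-376a*A replicate 2 or 3 or miR-376a*G replicate 1 or 3 (adjusted p between 0.0669 and 0.112). That of ACTN4 was lost without replicate 2 of miR-376a*A or replicate 3 of miR-376a*G (adjusted p = 0.0501 and 0.051). VASP passed as higher with miR-376a*A without control miRNA replicate 1 (adjusted p = 0.0382).

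**Figure D3:**
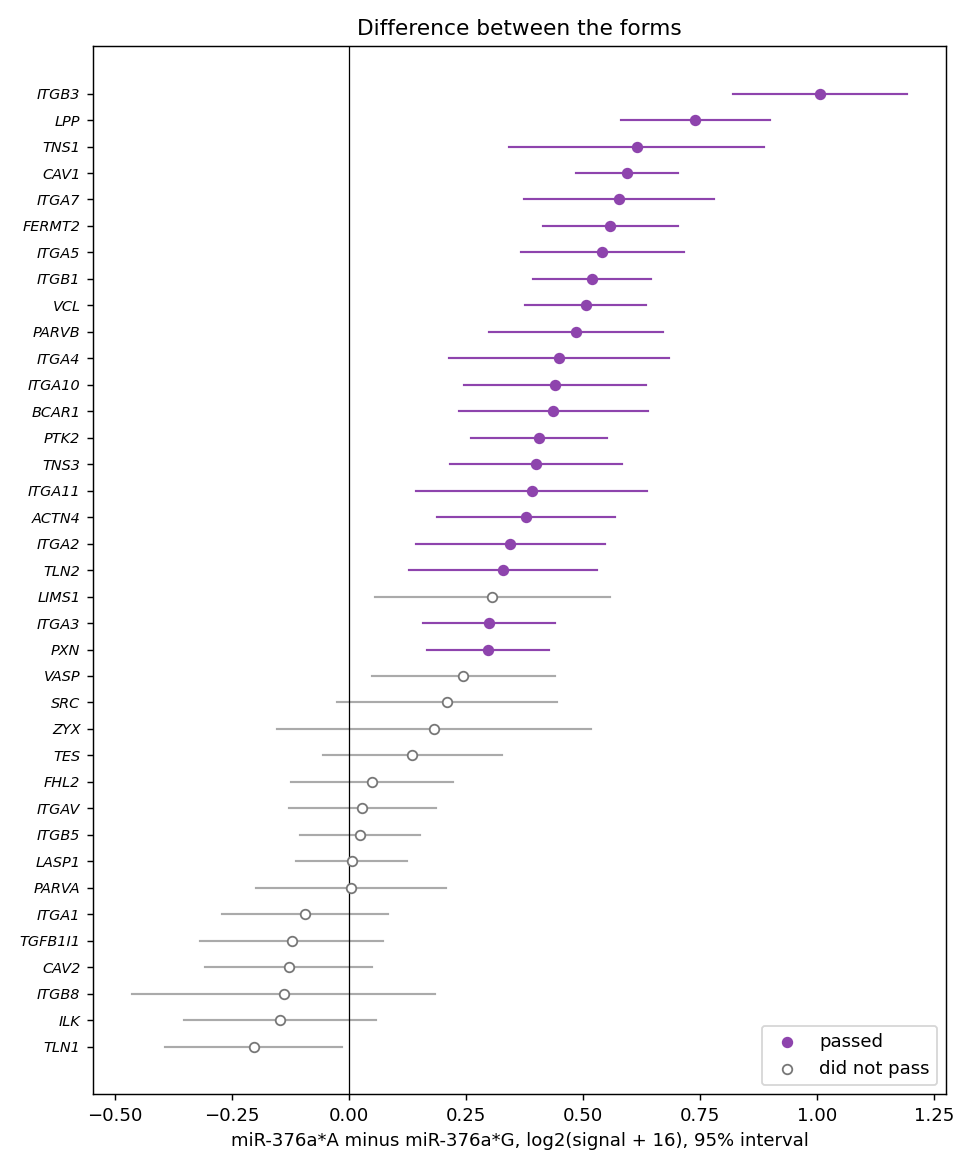
miR-376a*A minus miR-376a*G in log2(signal + 16) for the 37 tested genes, ordered by size, with 95% intervals of the shared fit. Filled points passed at an adjusted p under 0.05. All 21 that passed lie right of 0, from 0.30 (PXN) to 1.01 (ITGB3), and 6 genes lie left of 0 without passing.

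The other probe sets of these genes were tested as rows of their own. Of the 90 probe sets kept by the filter 38 were higher and 2 lower with miR-376a*A than with miR-376a*G, beside 10.2% and 7.95% of all 32768 probe sets kept. The 2 that were lower belonged to TES and CAV2. With miR-376a*G 29 of the 90 fell and 8 rose against the control miRNA (beside 14.3% and 11.5%), and with miR-376a*A 7 fell and 16 rose (beside 11.1% and 10.3%). Probe sets of a gene share its transcript, so these counts are not separate evidence. Of the 21 genes called between the forms 15 had another tested probe set, all of them had the same sign in 12, and another passed in the same direction in 8. Of 19 genes called with miR-376a*G 13 had another, in 9 all had the same sign, and the TES probe set was the 1 that passed the opposite way. Of 13 genes called with miR-376a*A 11 had another, in 6 all had the same sign, and 0 passed the opposite way by limma's adjusted p.

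**Figure D4:**
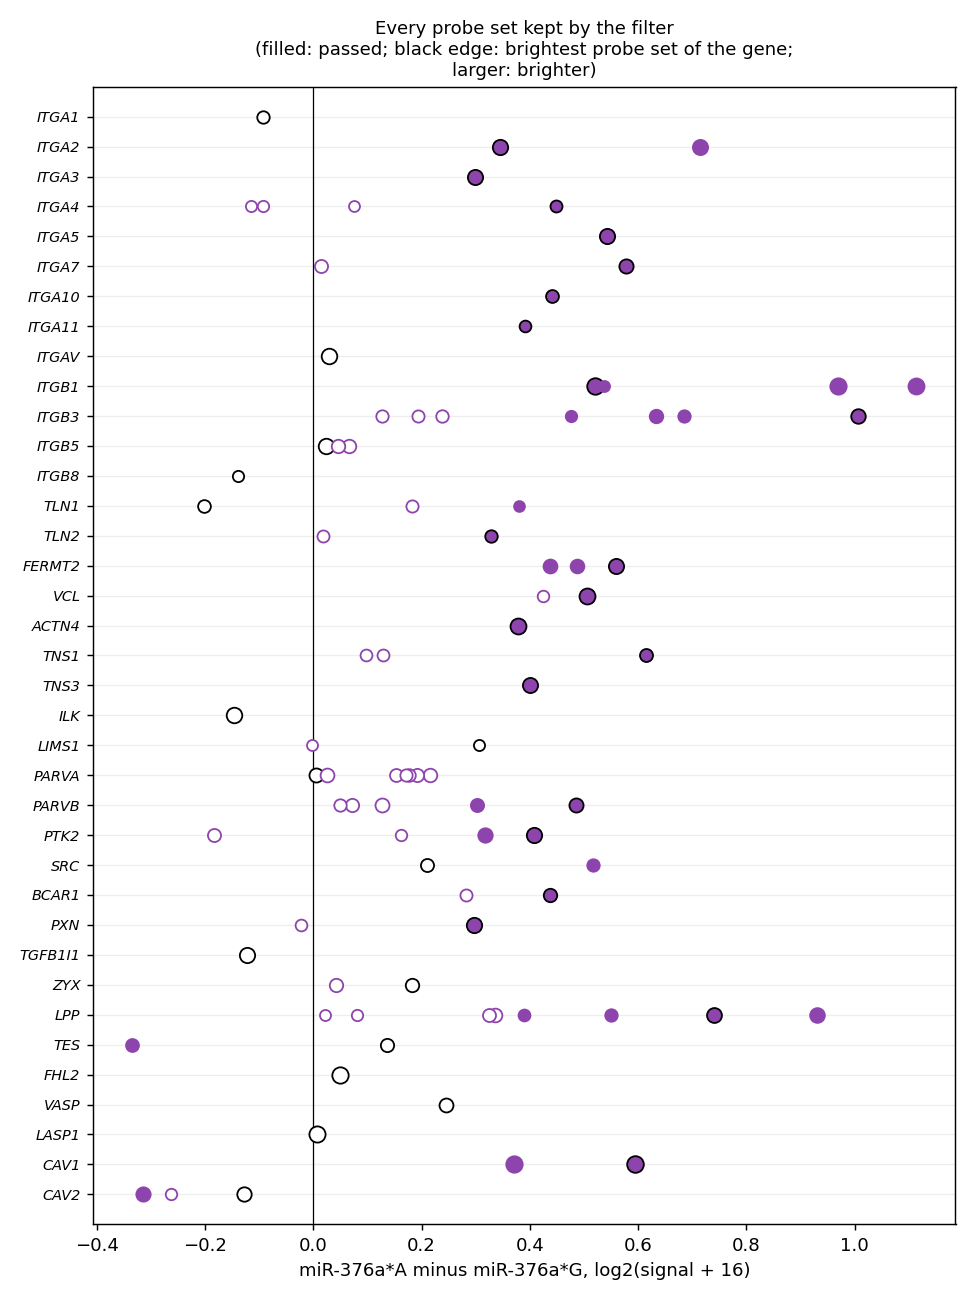
miR-376a*A minus miR-376a*G in log2(signal + 16) for each of the 90 probe sets of these genes kept by the filter. Filled points passed at an adjusted p under 0.05, a black edge marks the brightest probe set of a gene, and larger points are brighter. ITGB1, ITGB3, FERMT2 and LPP have several filled points right of 0, while the filled points of TES and CAV2 left of 0 are not their brightest probe sets.

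Promoters are shown for 3 of the genes that passed with both forms, as the 250 bases before the RefSeq start (GRCh38.p14). Capitals mark GGGCGG, the core of a GC box, or CATTCC, the core of an M-CAT element, on either strand. ITGA5 and VCL fell with both forms and CAV2 rose.
ITGA5 (chr12:54419267-54419516, minus strand): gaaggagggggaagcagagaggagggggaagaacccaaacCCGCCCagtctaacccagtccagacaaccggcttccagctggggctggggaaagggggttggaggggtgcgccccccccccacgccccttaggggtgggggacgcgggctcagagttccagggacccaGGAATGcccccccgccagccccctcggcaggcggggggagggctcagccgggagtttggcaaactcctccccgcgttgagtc
VCL (chr10:73997866-73998115, plus strand): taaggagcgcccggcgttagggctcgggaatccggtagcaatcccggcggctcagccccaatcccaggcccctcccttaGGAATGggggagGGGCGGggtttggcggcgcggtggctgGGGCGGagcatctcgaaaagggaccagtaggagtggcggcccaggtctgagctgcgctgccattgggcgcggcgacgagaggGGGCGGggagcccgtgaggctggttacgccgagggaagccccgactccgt
CAV2 (chr7:116499488-116499737, plus strand): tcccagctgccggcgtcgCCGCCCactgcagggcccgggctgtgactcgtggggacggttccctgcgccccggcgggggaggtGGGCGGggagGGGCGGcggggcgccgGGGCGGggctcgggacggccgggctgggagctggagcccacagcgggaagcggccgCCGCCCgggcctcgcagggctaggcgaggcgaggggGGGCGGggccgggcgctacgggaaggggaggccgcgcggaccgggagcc
GGGCGG is in 42.6% and CATTCC in 11.9% of the 35116 such windows in the table. The VCL window holds GGGCGG 3 times and CATTCC 1 time, the ITGA5 window holds each 1 time, and the CAV2 window holds GGGCGG 6 times. Promoters of 33 of the 39 genes were in the table, with 69 windows, of which 55.1% held GGGCGG and 15.9% CATTCC. The AP-1 core TGANTCA was in 8.7% of them and in 6.57% of all windows. A CArG box, the site that serum response factor binds, was in 7 of the 69, in windows of FHL2, FLNA, LPP, TES and TGFB1I1, and in 1.16% of all windows. Windows of a gene can overlap, and a match to these letters is a description only.

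Genes around these receptors were taken from 5 further lists, each gene by its brightest probe set. Over all features 13.1% fell and 11.8% rose with miR-376a*G, 10.0% fell and 10.8% rose with miR-376a*A, and 10.4% were higher and 7.90% lower with miR-376a*A than with miR-376a*G. Extracellular ligands of integrins had calls in both directions. Of 29 tested, 5 fell and 4 rose with miR-376a*G, 2 fell and 7 rose with miR-376a*A, and 10 were higher and 3 lower with miR-376a*A than with miR-376a*G. As shares, 17.2% fell and 13.8% rose with miR-376a*G, 6.9% fell and 24.1% rose with miR-376a*A, and 34.5% were higher and 10.3% lower between the forms. The matricellular ligands CCN2 and CCN1 rose 3.71-fold and 2.04-fold with miR-376a*G (adjusted p = 7.47e-09 and 1.94e-06), and the collagen genes COL6A1 and COL5A1 fell 1.53-fold and 1.44-fold (adjusted p = 8.08e-05 and 0.000689, limma). With miR-376a*A the fibrillin gene FBN1 rose 1.45-fold and CCN2 1.5-fold, while the laminin gene LAMA1 fell 1.53-fold and COL6A1 1.19-fold. FBN1 and COL5A1 were 1.51-fold and 1.54-fold higher with miR-376a*A than with miR-376a*G, and CCN2 and CCN1 2.47-fold and 2.31-fold lower. FN1, the fibronectin gene and main ligand of the ITGA5 and ITGB1 pair, was named after its values were seen. It averaged 2358 with miR-376a*A, 1802 with miR-376a*G and 1985 with the control miRNA, and was 0.38 (log2) higher with miR-376a*A than with miR-376a*G (adjusted p = 0.000679 by limma).

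Further adaptors of focal adhesions had calls in both directions, several in shares near those of all features. Of 34 tested, 6 fell and 3 rose with miR-376a*G, 4 fell and 4 rose with miR-376a*A, and 5 were higher and 2 lower between the forms, with a median of 0.12. As shares, 17.6% fell and 8.82% rose with miR-376a*G, 11.8% fell and 11.8% rose with miR-376a*A, and 14.7% were higher and 5.88% lower between the forms. PDLIM5, which binds alpha-actinin, fell 1.65-fold with miR-376a*G and 1.38-fold with miR-376a*A. ARHGEF7, an exchange factor for RAC and CDC42, fell 1.49-fold with miR-376a*G, whereas the zyxin relatives AJUBA and TRIP6 rose 1.35-fold and 1.25-fold. LIMD1, of the same family, and the kindlin gene FERMT1 rose 1.37-fold and 1.42-fold with miR-376a*A, and the talin-binding KANK1 fell 1.31-fold (adjusted p = 0.00175, 0.00801 and 0.0168 by limma). Other integrin subunits did not pass. Of 7 tested 0 passed in any comparison by limma, and by unadjusted p 1 was higher with miR-376a*A and 0 differed in the other comparisons. All but ITGAE (group means from 805 to 933) were dim, with no group mean above 29.6, so a change in them could be missed.

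Calls went both ways in signalling and the cytoskeleton, several in shares near those of all features. Of 31 tested kinases and GTPase regulators 8 fell and 4 rose with miR-376a*G, 3 fell and 4 rose with miR-376a*A, and 3 were higher and 4 lower between the forms. As shares, 25.8% fell and 12.9% rose with miR-376a*G, 9.68% fell and 12.9% rose with miR-376a*A, and 9.68% were higher and 12.9% lower between the forms. ABL1 and PAK2 fell 3.77-fold and 1.36-fold with miR-376a*G, and ARHGAP5 and the GTPase gene RAP1B rose 2.22-fold and 1.45-fold. CSK, the kinase that restrains SRC, and ABL2 fell 1.73-fold and 1.49-fold with miR-376a*A, and RAP1B and ROCK1 rose 1.48-fold and 1.5-fold. Among 23 actin cytoskeleton genes 5 fell and 3 rose with miR-376a*G, 4 fell and 4 rose with miR-376a*A, and 4 were higher and 3 lower between the forms. As shares, 21.7% fell and 13% rose with miR-376a*G, 17.4% fell and 17.4% rose with miR-376a*A, and 17.4% were higher and 13% lower between the forms. The tropomyosin gene TPM1 and CNN3, which encodes a calponin, rose with each form (1.49-fold and 1.31-fold with miR-376a*A, 1.46-fold and 1.71-fold with miR-376a*G). MYH9, the heavy chain of non-muscle myosin, fell 1.93-fold with miR-376a*A, and TPM4 and LIMK2 fell 1.65-fold and 1.45-fold with miR-376a*G. MRTFB, a coactivator of serum response factor, was 1.61-fold higher with miR-376a*A than with miR-376a*G (adjusted p = 0.000242 by limma). In the same comparison ACTA2 was 1.38-fold higher, and MYH9 and CNN3 were 1.66-fold and 1.3-fold lower (adjusted p = 0.00037, 1.17e-05 and 0.00231 by limma).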

How the data were processed

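RNA of 9 U87 cultures was measured on Affymetrix arrays. The values deposited by the authors are probe-set signal intensities on a linear scale, and the software GCOS is listed with version 1.4.0.036 per the submitters' processing notes. Its role and the scaling are not stated in the labels or files used. The array holds 54675 probe sets, of which 62 controls were not used. A single symbol was annotated for 41091, several for 1801 and none for 11721. No symbol was changed by Entrez identifier.

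Signals were analysed as log2(signal + 16). Probe sets with a mean at or above the 40th percentile (4.771) were kept, 32768 in all, and each gene was represented by the probe set with the highest mean. The test was limma's moderated test (version 3.58.1, R 4.3.3, all 9 arrays, intensity trend, 6 residual and 6.48 prior degrees of freedom, two-sided, Benjamini-Hochberg over 20068 features). The median SE was 0.101, and 3 arrays a group limit the precision. The fit was tested on simulated data. Values on every array are given for the 16 genes with the largest differences among those that passed and for ITGB1, TLN1, PTK2 and ILK. Genes of other lists were drawn from those with the smallest p among the passed, up to 2 in each direction, and not all of these are named. TNS2, TNS4, ITGA9 and FN1 were named after their values were seen. The members and lists were chosen with earlier results of these data known. Figures were drawn with Python 3.11.15, pandas 2.3.3 and matplotlib 3.10.9. Alternatives covered scaling, filter, offset, variance model, probe set rule, arrays in the fit, the replicate block and each array left out.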

Additional observations from a re-analysis of the deposited data

How the results depend on the processing

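Counts of the 37 genes were recomputed under 19 alternatives. With the mean of a gene's probe sets 2 genes fell with miR-376a*A, against 4 as reported, and 1 gene, CAV2, was lower with miR-376a*A than with miR-376a*G (-0.23, adjusted p = 0.0239), against 0 as reported. With only the 2 groups compared in the fit 1 gene was lower between the forms, ILK (-0.15, adjusted p = 0.0456). CAV2 and ILK were named after their values were seen. The mean of probe sets turned the sign of PARVB (-0.014) and PXN (-0.025) with miR-376a*A and of TES with miR-376a*G (0.0066). It also ended the ITGB3, TLN2 and PTK2 calls with miR-376a*A (adjusted p = 0.088, 0.878 and 0.0777), those of ITGA4, TLN2, TNS1 and PARVA with miR-376a*G and those of ITGA4, TLN2, PARVB, PTK2 and PXN between the forms. The cause of these changes was not tested.

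Leaving out each array in turn gave 6 to 11 rises and 3 to 5 falls with miR-376a*A, 2 to 4 rises and 13 to 18 falls with miR-376a*G, and 18 to 22 genes higher and 0 to 0 lower with miR-376a*A than with miR-376a*G. Among called genes, 6 of 13, 11 of 19 and 13 of 21 in the 3 comparisons kept their call under all alternatives. No other count moved by over 1.5 times.

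The groups share replicate numbers. Same-numbered arrays correlated between -0.11 and 0.071 in their deviations from the group means, and 1 of 9 arrays correlated best with its own number, so the numbers do not show a pairing. With the replicate number as a block the counts were 8 rises and 4 falls with miR-376a*A, 3 and 16 with miR-376a*G, and 21 higher and 0 lower between the forms. PTK2 with miR-376a*A was the 1 call that changed (adjusted p = 0.0646).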
